A study of Mus musculus with 6 samples.

Results

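The genes described here act in the DNA damage response and in DNA repair, and were followed in mouse liver that expressed viral oncoproteins. They are 34 genes given by name, and members are all probe sets of the arrays annotated with 1 of these symbols. All 34 were on the arrays, through 71 of 45265 probe sets, among 18193 named genes in all. Liver RNA came from male mice of a hybrid B6SJL background, 32 to 37 days old, and each of 3 genotypes was measured on 1 Affymetrix 430A array and 1 Affymetrix 430B array, for a total of 6. Wild-type (WT) mice carried no transgene. LT mice were ApoErtTA:TRE2-TAg transgenic and were induced to make the SV40 large T antigen with small t (st). 17kT mice carried transgenes labelled ApoErtTA:TRE2-TAg in titles and ApoErtTA:TRE2-TA in the genotype, and were induced to make the SV40 17kT protein with small t. ApoErtTA and TRE2 are, by their names, a doxycycline-controlled activator under an apolipoprotein E promoter and its response element, and WT mice lacked them. The inducer, 25 µg/ml doxycycline in 2.5% sucrose, was given to every group for 4 days, WT mice among them. Pooling of animals was not given in the sources used here.

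Large T is known to bind the retinoblastoma family of proteins, which hold back E2F transcription factors, and to bind p53. The 17kT protein is a shorter splice product that keeps the retinoblastoma binding motif and lacks the p53 binding region. The DNA damage response starts with kinases that sense breaks (Atm) or stalled replication forks (Atr) and pass the signal to Chek1 and Chek2. Repair then follows by routes that differ in the lesion they handle, and several of these routes work mainly in S phase, when a sister chromatid is at hand. Most hepatocytes of an adult liver are not dividing, and genes of the replication-coupled routes are known to be expressed at low levels in such cells.

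Promoter sequences are shown first because E2F factors are known regulators of many genes of this kind. RefSeq promoter windows (GRCm38.p6, 250 bases before to 50 bases after the gene's start) were found for 28 of the 34 members, and not for H2ax, Fancd2, Rad50, Nbn, Exo1 and Tipin. The E2F motif was searched on both strands as TTTCCCGC, TTTGGCGC, TTTCGCGC or TTTGCCGC. It was found in windows of 10 of the 28 members (35.7%) and of 704 of 27025 genes with such windows (2.60%). The matches, in capitals, and the bases around them read 5′ to 3′ on the strand of the gene as follows.
Topbp1, chr9:103305152-103305251, plus strand: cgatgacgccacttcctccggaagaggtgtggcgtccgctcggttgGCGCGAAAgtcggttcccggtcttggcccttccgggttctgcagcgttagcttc
Brca2, chr5:150522407-150522506, plus strand: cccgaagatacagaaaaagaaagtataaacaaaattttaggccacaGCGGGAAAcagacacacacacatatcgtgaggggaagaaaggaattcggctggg
Chek2, chr5:110839785-110839884, plus strand: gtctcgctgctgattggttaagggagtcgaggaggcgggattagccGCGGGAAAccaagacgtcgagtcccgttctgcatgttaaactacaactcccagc
Mdc1, chr17:35841398-35841497, plus strand: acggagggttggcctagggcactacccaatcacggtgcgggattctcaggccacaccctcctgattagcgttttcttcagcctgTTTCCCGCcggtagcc
Bard1, chr1:71103123-71103222, minus strand: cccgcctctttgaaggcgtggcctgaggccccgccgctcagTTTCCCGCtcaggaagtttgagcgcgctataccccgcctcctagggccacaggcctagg
Xrcc6, chr15:82016269-82016368, plus strand: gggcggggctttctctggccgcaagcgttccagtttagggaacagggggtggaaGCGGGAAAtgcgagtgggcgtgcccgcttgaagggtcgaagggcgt
Clspn, chr4:126556993-126557016, plus strand: gcgtctggGCGCGAAAgctcgaac
Lig1, chr7:13278844-13278867, plus strand: caaagtgcGCGCGAAAtctgtgtg
Msh6, chr17:87975057-87975080, plus strand: ctcccgacTTTCCCGCcagcggcg
Rad51c, chr11:87404480-87404503, minus strand: tccagcgcTTTCGCGCctcttgct

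The match began 129 bases before the annotated start in Topbp1, 168 in Brca2, 152 in Chek2, 16 in Mdc1, 209 in Bard1 and 46 in Xrcc6. In Clspn, Lig1, Msh6 and the window shown for Rad51c it lay just after the start, and a window at another Rad51c start held a further match. The E2F motif was present in 5 of 17 members with a window that were higher in both transgenic livers and in 5 of 11 that were not. Of the latter 5, Brca2, Chek2 and Mdc1 were higher in 17kT alone and Xrcc6 in LT alone. Bard1 was at the floor on every array and has no ratio. A link between the motif and the calls given below was not tested. The CCAAT box (CCAAT, both strands) was present in 17 of 28 members (60.7%) and in 41.1% of all genes with windows. The cell cycle homology region (TTTGAA or TTCGAA, both strands) was present in 2 of 28 (7.14%), Bard1 and Atr, and in 21.7% of all. None of the motifs contains another.

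Signals below are MAS5 values on a linear scale, set to a common mean within a design. For ratios, values under the median of a design (90.4 for 430A, 140.5 for 430B) were raised to that median, the floor, and have no order. Members are called higher or lower from a 2-fold difference upward, 1 on the log2 scale. Where the dimmer array lay at the floor, the ratio is a lower bound, written "at least". There was 1 array per genotype and design, so differences between genotypes were not checked by replicates and carry no p-values. The technical spread of a log2 ratio, from 100 probe sets present on both designs, had an SD of 0.23 (LT over WT), 0.28 (17kT over WT) and 0.26 (LT over 17kT). Between probe sets of 1 gene it was 0.58, 0.57 and 0.48 (SD). The median offset of the shared probe sets, 430A minus 430B, was -0.25 (LT over WT), 0.19 (17kT over WT) and -0.36 (LT over 17kT). Ratios were not corrected for this offset, which bears on the members read on 430B (Atm, Clspn, Mdc1, Fancb, Fancd2 and Rad18). WT RNA had a Gapdh 3′ over 5′ ratio of 5.81 and 6.04 on its arrays, against 2.85 to 3.53 on the transgenic arrays. The Actb ratio was 2.57 and 2.29 in WT, 2.52 and 2.50 in LT, and 2.13 and 1.72 in 17kT. Also, fluidics station 2 served the LT arrays and station 1 the rest. The part of these in the results was not tested. Arrays had from 47.1% to 52.0% of probe sets above the floor.

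In LT liver 22 of 34 members (64.7%) were higher than in WT and 0 were lower, with a median log2 ratio of 1.23. Of all 18193 genes 7.78% were higher and 6.33% lower, with a median of 0.00. In 17kT liver 25 of 34 members (73.5%) were higher and 0 lower, with a median of 1.33, where 7.12% of all genes were higher and 6.17% lower (median 0.00). Of the members, 21 were higher in both transgenic livers, against 4.20% of all genes. These comparisons share the WT arrays. On the WT array 22 members were above the floor, against 33 on the LT and 33 on the 17kT arrays, and 11 members thus passed the floor through the transgenic arrays alone. A member with a WT signal under 2 times its floor could not be called lower. Only Atm, Clspn, H2ax, Mdc1, Rad50, Fanca, Lig1, Parp1 and Rpa1 had a higher WT signal than that. For the rest the lack of a lower call was fixed by the floor. Among the 22 members above the floor in WT, 12 were higher in LT (54.5%) and 15 in 17kT (68.2%). Of the 11650 genes above the floor in WT, 9.36% were higher and 9.89% lower in LT, and 7.92% higher and 9.64% lower in 17kT. Members were named with earlier results of these arrays known, so their share is a description.

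**Figure D1:**
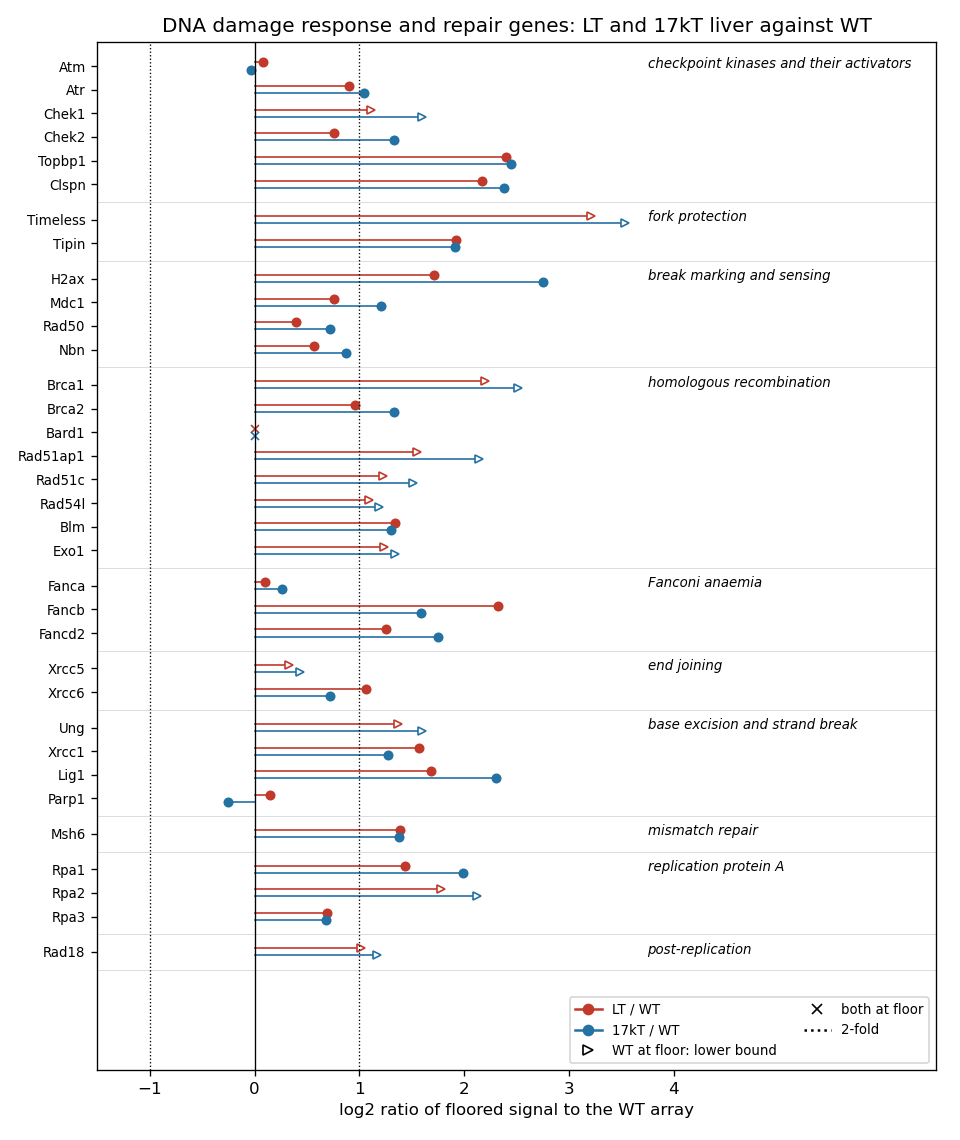
Log2 ratio of the floored signal in LT (red) and 17kT (blue) liver to WT for the 34 members, grouped by pathway, 1 array per genotype; open triangles are lower bounds because WT was at the floor, crosses are genes at the floor on all arrays, and dotted lines mark 2-fold. Timeless reached the highest ratios (at least 3.21 and at least 3.54) and no member passed -1.

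Of the 6 checkpoint members 3 were higher in LT and 5 in 17kT, with Atm near WT in both. Topbp1, which activates Atr, had a signal of 123 in WT, 645 in LT and 671 in 17kT, 5.26-fold and 5.47-fold over WT. Clspn, the claspin adaptor that lets Atr reach Chek1, had signals of 331, 1490 and 1718, which were 4.51-fold and 5.19-fold over WT. Both transgenic livers were thus far above WT for these genes and close to each other. Chek1, the effector kinase of this branch, was at the floor in WT (27.4) and measured 195 in LT and 273 in 17kT, at least 2.15-fold and at least 3.02-fold higher. These values come from a probe set of the _s_at kind. Another Chek1 probe set gave log2 ratios of at least 0.58 in LT and at least 1.25 in 17kT, and the rest were at the floor. Without _x_at and _s_at probe sets the Chek1 call in LT was lost. Atr itself had signals of 108, 201 and 222 in WT, LT and 17kT, with log2 ratios of 0.90 and 1.04, so that it passed 2-fold in 17kT only and by little. Under 3 of 5 other scalings Atr in 17kT lay below 2-fold, with 0.77 as the lowest log2 ratio. The signals as deposited, 1 of the 5, were already on nearly the same scale as the main analysis. Chek2, the effector kinase of the break branch, measured 124, 209 and 310 (log2 ratios of 0.76 and 1.33). Atm, the break-sensing kinase, measured 799 in WT, 845 in LT and 782 in 17kT, and its log2 ratios of 0.08 and -0.03 lay within the technical spread.

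Timeless and Tipin encode partners in a complex that travels with the replication fork and protects it when it stalls. Timeless was at the floor in WT (51.9) and measured 839 in LT and 1053 in 17kT. It was at least 9.28-fold and at least 11.7-fold higher, the highest ratios among the 34 members. Tipin measured 144 in WT, 547 in LT and 543 in 17kT, 3.79-fold and 3.76-fold over WT. A weaker Timeless probe set was at the floor on all 3 arrays and gave no ratio.

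Among genes that mark and sense breaks, H2ax stood out. It encodes the histone variant that is phosphorylated around breaks, and had signals of 226 in WT, 737 in LT and 1516 in 17kT. It was 3.27-fold higher in LT and 6.71-fold higher in 17kT. Mdc1, the mediator that reads phosphorylated H2ax, measured 548, 926 and 1269, with log2 ratios of 0.76 for LT and 1.21 for 17kT. Rad50 and Nbn, subunits of the complex that first binds broken ends, changed less. Rad50 measured 258, 340 and 425 (log2 ratios of 0.40 and 0.72). Nbn measured 104, 154 and 189 (0.57 and 0.87). Neither passed 2-fold, though both lay above WT in LT and in 17kT by more than the SD over shared probe sets. In LT neither exceeded the SD of 0.58 between probe sets of 1 gene. A second Rad50 probe set was at the floor in WT and LT and barely above it in 17kT (91.7).

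Homologous recombination copies the missing sequence from a sister chromatid and had the most members. Of its 8 genes, 6 were higher in LT and 7 in 17kT. Brca1, which helps to start the reaction, was at the floor in WT (36.6) and measured 416 in LT and 516 in 17kT, at least 4.61-fold and at least 5.71-fold higher. Brca2, whose product acts in the same route, measured 121, 234 and 303, with log2 ratios of 0.96 and 1.33. Brca1 and Brca2 were thus both above WT, although in LT Brca2 missed 2-fold by a margin below the technical spread. Rad51ap1, also of this route, measured 59.0 in WT, 264 in LT and 400 in 17kT (at least 2.92-fold and at least 4.42-fold). Rad51c measured 28.3, 211 and 257, and the translocase gene Rad54l 10.5, 192 and 206. Both were at the floor in WT and at least 2.34-fold and at least 2.13-fold higher in LT, and at least 2.84-fold and at least 2.28-fold higher in 17kT. The helicase gene Blm, whose product takes apart recombination intermediates, measured 125, 318 and 309 (2.54-fold and 2.47-fold), and Exo1, a nuclease that resects DNA ends, 52.4, 213 and 229 (at least 2.36-fold and at least 2.53-fold). Bard1, the partner of Brca1, was the 1 member at the floor on every array (7.0, 8.3 and 36.9) and has no direction.

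**Figure D2:**
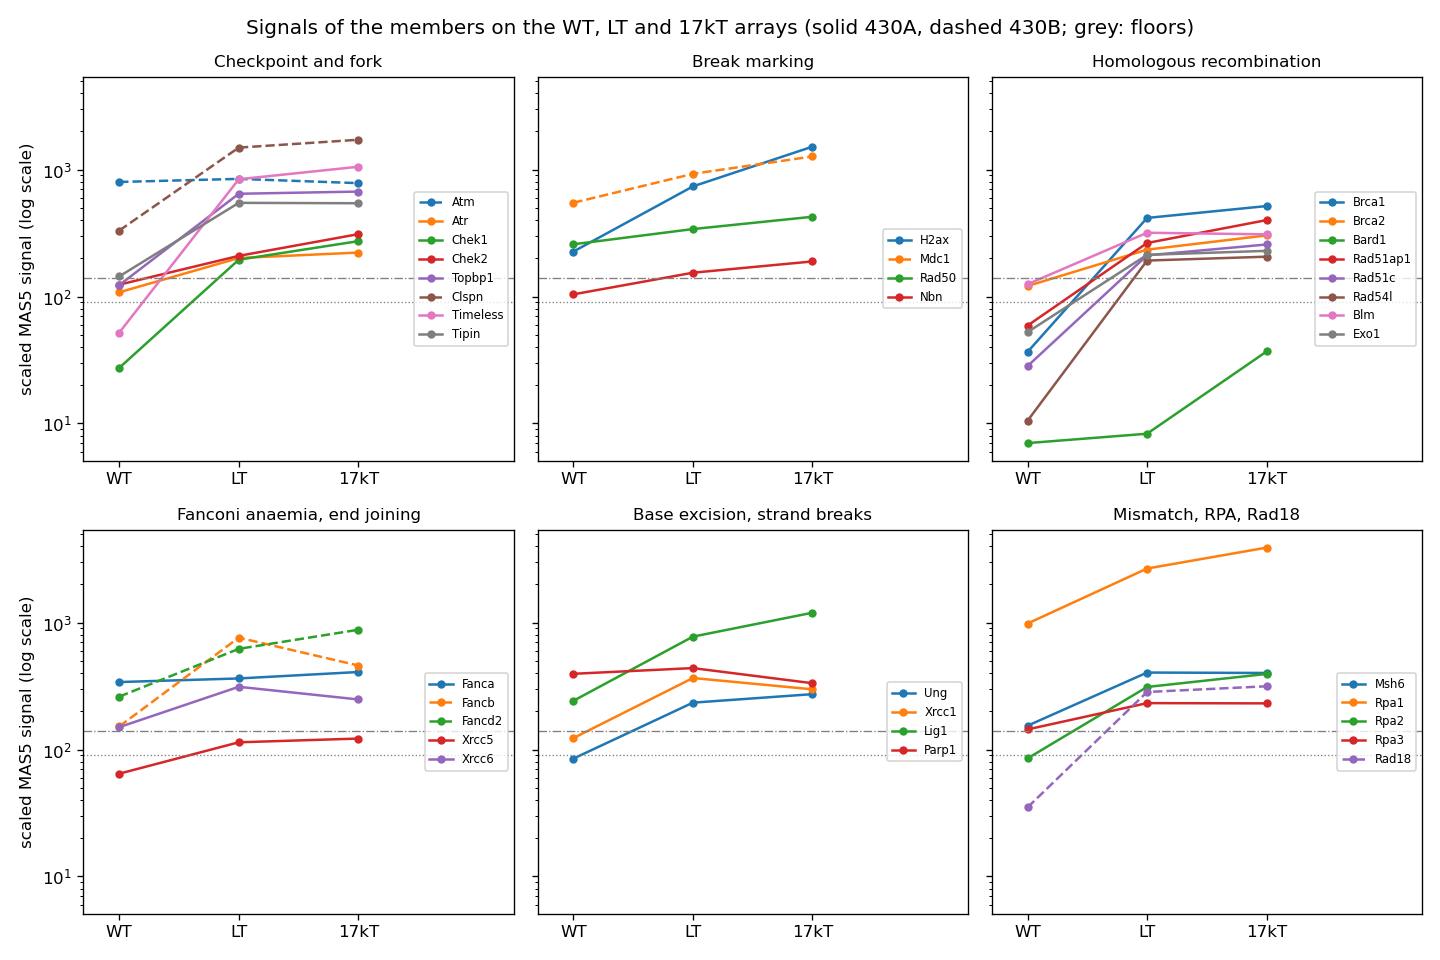
Scaled MAS5 signal (log axis) of each member on the WT, LT and 17kT array of its design, in 6 panels by pathway; solid lines are 430A and dashed lines 430B probe sets, lines only join the values of 1 probe set, and grey lines are the floors (90.4 dotted, 140.5 dash-dotted). WT has the lowest signal for 31 of 34 members, all but Atm, Parp1 and Bard1, whose values all lie under the floor.

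The Fanconi anaemia pathway repairs crosslinks between DNA strands. Its core complex adds ubiquitin to Fancd2. Fancb, of the core complex, measured 152 in WT, 761 in LT and 459 in 17kT, 4.99-fold and 3.01-fold over WT. Another Fancb probe set measured 277, 691 and 310, with log2 ratios of 1.32 for LT and 0.16 for 17kT, so the gain in 17kT rests on 1 probe set. Fancd2 measured 261, 621 and 878 (2.38-fold and 3.36-fold), but a second, bright probe set measured 418, 602 and 459 (log2 ratios of 0.53 and 0.14). Scaled to the probe sets present on both designs, Fancd2 in LT fell under the 2-fold rule, at 0.77. Fanca, also of the core complex, measured 340, 363 and 408, with log2 ratios of 0.10 and 0.26. These members thus differed among themselves, with Fanca near WT in both livers.

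End joining reseals breaks without a template, and the members in it encode the subunits of Ku, which binds broken ends. Xrcc6, which encodes Ku70, measured 150 in WT, 312 in LT and 248 in 17kT, a log2 ratio of 1.06 in LT and 0.72 in 17kT. Its call in LT was lost under 2 of 5 other scalings, with 0.81 as the lowest value. Xrcc5, which encodes Ku80, was at the floor in WT (64.5) and measured 114 and 122, which gives log2 ratios of at least 0.33 and at least 0.43.

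Among genes of base excision and strand break repair, Lig1, the ligase that joins Okazaki fragments and finishes repair patches, measured 242 in WT, 775 in LT and 1196 in 17kT, and was 4.94-fold over WT in 17kT, with a log2 ratio of 1.68 in LT. Ung, the glycosylase that removes uracil, measured 84.8, 234 and 273 (at least 2.59-fold and at least 3.02-fold). Xrcc1, the scaffold of strand break repair, measured 123, 366 and 298 (2.96-fold and 2.41-fold). These 3 genes were higher in both livers. Parp1, which senses strand breaks, measured 395, 438 and 333, with log2 ratios of 0.15 and -0.25. Its other probe sets ran from -0.37 to 0.64 in LT and from -0.57 or lower to 0.36 in 17kT. Parp1 thus had no settled direction.

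Msh6, of the mismatch recognition complex that follows the replication fork, measured 154 in WT, 404 in LT (2.63-fold) and 401 in 17kT (2.61-fold). Replication protein A coats exposed DNA strands and is needed in replication and in most repair. Its large subunit gene Rpa1 measured 983, 2666 and 3896 (2.71-fold and 3.96-fold), and a second probe set gave log2 ratios of 1.85 and 2.19. Rpa2 was at the floor in WT (85.1) and measured 311 and 394 (at least 3.44-fold and at least 4.36-fold). A second Rpa2 probe set measured 20.1, 87.4 and 149. It was at the floor in WT and LT and gave a log2 ratio of at least 0.72 in 17kT. Rpa3 measured 144, 232 and 231, with log2 ratios of 0.69 and 0.68, so the smallest subunit did not pass the rule beside the other two. Rad18, the ubiquitin ligase that opens lesion bypass, measured 35.0, 284 and 315 (at least 2.02-fold and at least 2.25-fold), and was under 2-fold in LT when scaled to the probe sets present on both designs (0.74). Another Rad18 probe set on 430B measured 114, 202 and 194 (log2 ratios of at least 0.53 and at least 0.47). Those on 430A were at the floor, except for 105 in 17kT on 1 of them.

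The 8 members that passed 2-fold in neither liver were Atm, Rad50, Nbn, Bard1, Fanca, Xrcc5, Parp1 and Rpa3. Members that passed in 17kT and not in LT were Atr, Chek2, Mdc1 and Brca2, and Xrcc6 passed in LT alone. For Atr, Brca2 and Xrcc6 the LT and 17kT arrays differed from each other by less than the SD of 0.48 between probe sets of 1 gene, as they did for Mdc1. For Chek2 the log2 ratio of LT to 17kT was -0.57, above that SD.

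LT and 17kT livers were then compared directly. The 17kT protein lacks the p53 binding region and is also shorter, and the LT arrays alone ran on fluidics station 2. With 1 array per genotype and design, these differences cannot be told apart. Of 34 members 0 were higher in LT and 1 was lower, where 3.08% and 2.91% of all genes were called, a share near the background. The median log2 ratio was -0.19, against 0.00 for all genes. The member called was H2ax, 2.06-fold higher in 17kT (log2 ratio of -1.04 for LT against 17kT), which ran from -1.39 to -0.88 under 6 scalings. The next largest differences were in Fancb (0.73), Lig1 (-0.63) and Rad51ap1 (-0.60). The Fancb probe set that did not stand for the gene measured 691 in LT and 310 in 17kT. Its log2 ratio of 1.16 passed 2-fold, so the size of the Fancb difference depends on the probe set. For 14 members above the floor the arrays differed by no more than the technical SD of 0.26. The floored 17kT signal was above that of LT for 24 members and below it for 9, against 35.9% and 33.0% of all genes. With median scaling the numbers were 17 and 16 (26.8% and 42.0% of all genes), and the median offset of this ratio between the designs was -0.36, so the order of LT and 17kT is not settled for the list. WT had the lowest of the 3 floored signals for 31 members, all but Atm, Parp1 and Bard1, and for 27.7% of all genes. For 11 of the 31 WT was at the floor and LT and 17kT above it, which leaves no other order. The number was between 30 and 33 under the 6 scalings.

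**Figure D3:**
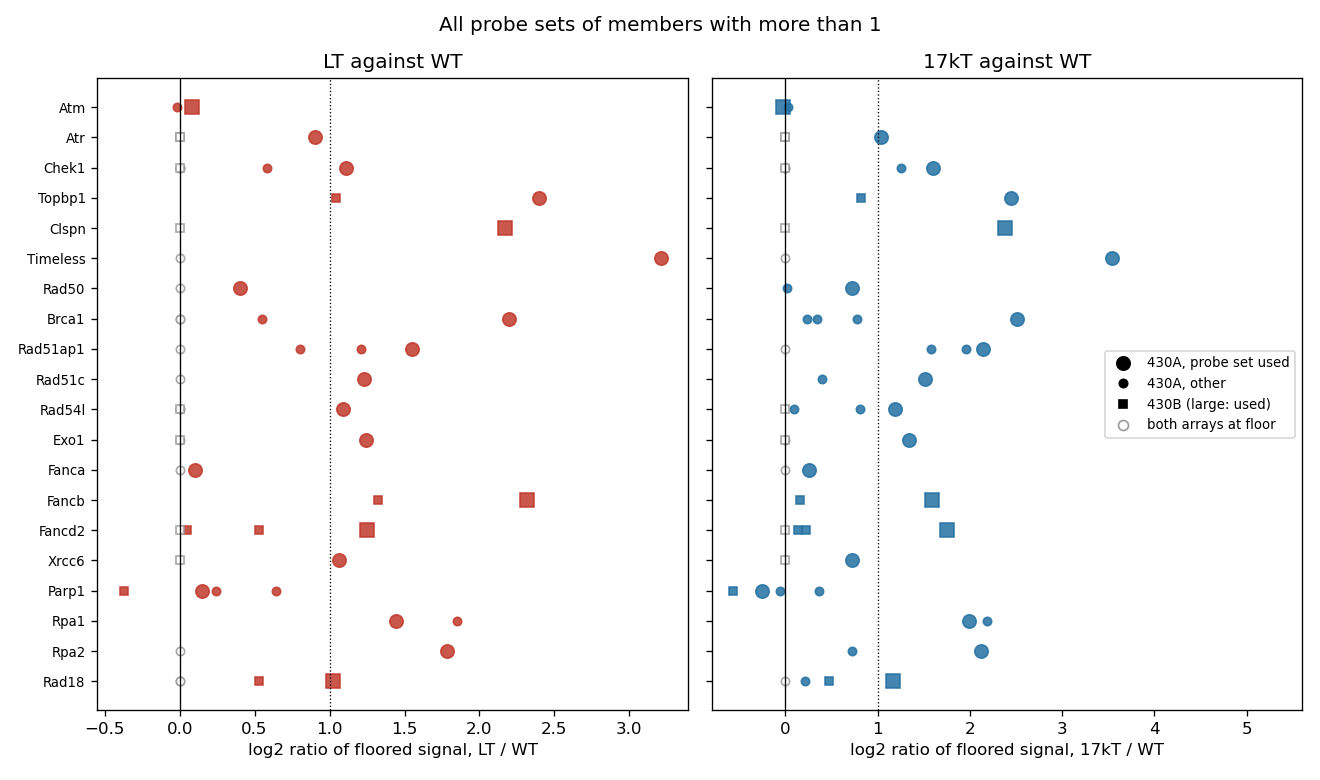
Log2 ratio of floored signal to WT for every probe set of the 20 members that have more than 1, LT on the left and 17kT on the right; large symbols are the probe sets used for the gene, circles 430A, squares 430B, and open grey symbols probe sets at the floor on both arrays. No other probe set of a called member passed 2-fold in the opposite direction.

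Of the members, 14 had 1 probe set and 20 had several, and the brightest relative to the floor stood for the gene. Of the 37 other probe sets, 14 were above the floor in LT or WT. For the members called higher in LT, 10 such probe sets were available and 4 passed 2-fold themselves. WT was above the floor for 3 of the 10, so that their sign was free, and those 3 had the sign of the gene. In 17kT against WT 22 of 37 were above the floor, 17 belonged to called members and 4 passed 2-fold. The sign was free for 3 of the 17, and those 3 had the sign of the gene. Every Brca1 probe set was at the floor in WT. Its other probe sets above the floor gave at least 0.55 in LT, and lower bounds from 0.23 to 0.78 in 17kT. The probe set used gave at least 2.20 and at least 2.51. Such bounds do not show how far the Brca1 probe sets differ in ratio. When the probe sets of a gene were averaged, those at the floor included, 12 members were higher in LT and 16 in 17kT. By the same averaging 4.13% and 4.17% of all genes were higher. Topbp1, by contrast, was seen on both designs. Its log2 ratios were 2.40 on 430A and at least 1.04 on 430B in LT, and 2.45 and at least 0.82 in 17kT. WT was at the floor on 430B (130).

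To place the members among repair genes in general, 114 other genes of the same pathways were counted (127 were listed). In LT 20 of them were higher (17.5%) and 2 lower, with a median of 0.20. In 17kT 22 were higher (19.3%) and 1 lower, with a median of 0.37. Under 6 scalings the number higher ran from 11 to 36 in LT and from 15 to 43 in 17kT. The highest were Fignl1, of homologous recombination (at least 6.32-fold in LT and at least 4.88-fold in 17kT), Fen1, the flap nuclease of Okazaki fragments (at least 5.15-fold and at least 6.15-fold), and Parp2, a relative of Parp1 (at least 4.50-fold and at least 5.69-fold). The lowest in LT were Fancc (2.31-fold lower), Fancf (log2 ratio -1.04) and Apex2 (-0.73). The lowest in 17kT were Ube2t (-1.52 or lower), Pms2 (-0.99) and Fancf (-0.89). Fancc in LT ran from -1.45 to -0.84 under the 6 scalings and Fancf from -1.52 to -0.55.

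By pathway, 8 of 22 other genes of homologous recombination were higher in LT and 7 of 22 in 17kT, and of base excision 4 of 15 and 5 of 15. Of all genes 7.78% were higher in LT and 7.12% in 17kT, and the lists by pathway are short. Crosslink repair had 2 of 12 and 3 of 12, translesion and post-replication repair 0 of 11 and 3 of 11, checkpoint genes 2 of 10 and 2 of 10, and break signalling 2 of 9 and 1 of 9. Direct reversal had 0 of 3 and 0 of 3. Nucleotide excision repair, which removes bulky lesions, had 1 of 19 in LT and 1 of 19 in 17kT, with medians of 0.18 and 0.19. Each is 5.26% of the nucleotide excision list, near the share of all genes. Under the 6 scalings the higher calls in nucleotide excision repair ran from 0 to 2 in LT and from 0 to 5 in 17kT. Other mismatch repair genes had 0 of 4 and 0 of 4 higher, and other end joining genes 1 of 9 and 0 of 9. Medians were higher for genes of the replicative helicase and of mitosis than for the members (1.23 in LT and 1.33 in 17kT). All 6 measured Mcm genes of the replicative helicase were higher in both livers (medians 2.71 and 2.89), as were all 11 measured mitotic genes (3.28 and 3.09). The differences between these lists were not tested.

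**Figure D4:**
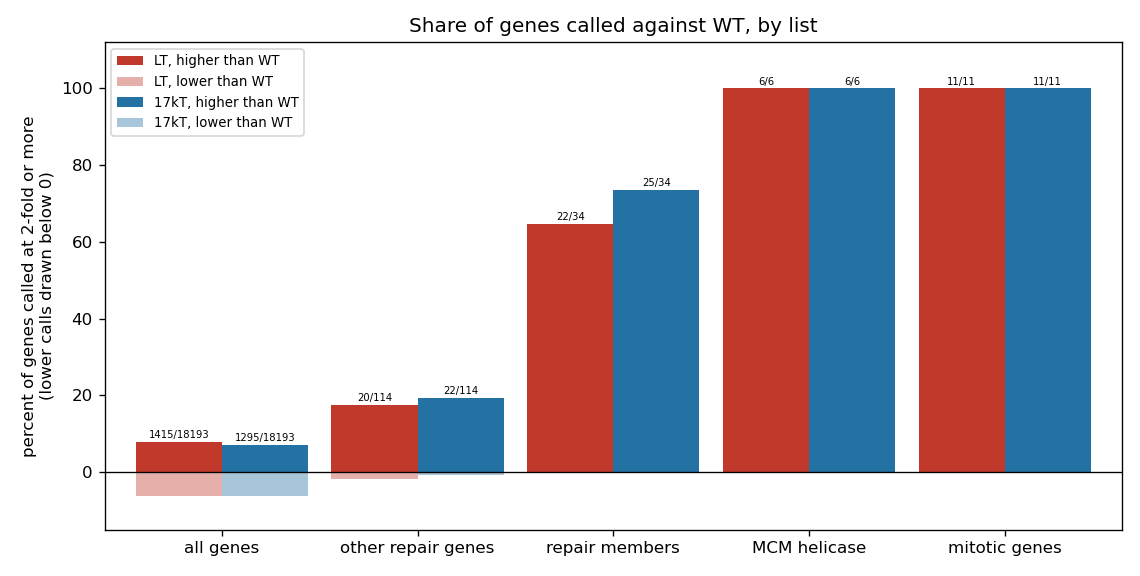
Percent of genes called at 2-fold or more against WT in LT (red) and 17kT (blue), for all genes, 114 other repair genes, the 34 members, 6 Mcm genes and 11 mitotic genes, with higher calls above 0, lower calls (pale) below it, and numbers called of those on the arrays above the bars. The members (22 and 25 of 34) lie between the other repair genes and the replication and mitosis genes.

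The other repair genes also included some that passed 2-fold between LT and 17kT. Rev1, a polymerase of lesion bypass, was at the floor in WT (38.5) and measured 91.0 in LT and 236 in 17kT, with a log2 ratio of -1.38 for LT against 17kT. Mpg, the glycosylase for alkylated bases, measured 111, 121 and 282 (-1.22). Mgmt, which reverses alkylation of guanine, measured 98.6, 32.8 and 195 (-1.11 or lower). For these 3 genes the 17kT signal was the highest of the 3. Gen1 (1.08), Ube2t (at least 0.97) and Rif1 (0.96) were the highest in LT against 17kT. In all, 1 of 114 was higher in LT than in 17kT (0.877%) and 4 were lower (3.51%), with 0 to 7 and 3 to 8 under the 6 scalings. Of all genes 3.08% were higher and 2.91% lower.

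Damage-linked targets of p53 were listed apart, with Ddb2, Xpc, Polh and Polk also among the other repair genes. Of the 11 targets, 1 was higher in LT (Cdkn1a) and 5 in 17kT against WT, where 7.78% and 7.12% of all genes were higher. The 5 were Cdkn1a, the gene of the p21 inhibitor of cyclin-dependent kinases (log2 ratio 3.77), Btg2 (2.11), Mdm2, whose product degrades p53 (2.02), the bypass polymerase gene Polk (1.37) and Ddb2, a damage sensor of nucleotide excision repair (at least 1.03). In LT these genes had log2 ratios of 2.04, -0.21, 0.63, 0.26 and at least 0.53. Ddb2 fell below 2-fold in 17kT under some scalings (0.92 at the lowest), and Gadd45a, Xpc, Polh, Rrm2b, Sesn1 and Sesn2 were called in neither liver. LT against 17kT had 4 of 11 lower (Btg2, Cdkn1a, Mdm2 and Polk), between 3 and 5 under the 6 scalings, where 2.91% of all genes were lower.

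Whole liver was measured, so a change in the share of a cell type and a change in RNA per cell cannot be told apart. The summed signal of 5 hepatocyte markers was 183126 in WT, 127547 in LT and 91793 in 17kT, with all 5 above the floor on every array. Kupffer cell markers (6 of 6 above the floor on every array) summed to 10997, 9569 and 11381. Endothelial markers (6 of 6) summed to 1974, 1290 and 1514. Stellate markers (6) summed to 5460, 3537 and 5634, with Des and Col1a1 at the floor in LT and 17kT. Bile duct markers (4) were at the floor on every array, with Krt19, Krt7, Epcam and Sox9 among them. Of 4 neutrophil markers 0 were above the floor in WT, 3 in LT and 2 in 17kT (summed signals 299, 602 and 367). B and T cell markers (5) summed to 1056, 610 and 695 with Cd3e and Cd3g at the floor on all arrays, and erythroid markers (5) to 1971, 259 and 305. Most of the erythroid sum was Alas2 (1742, 124 and 141), with Hba-a1, Slc4a1 and Epb42 at the floor on all arrays and Klf1 in LT and 17kT. The part of any of these in the members' differences was not tested.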

How the data were processed

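Liver RNA of 3 genotypes was hybridised to 2 array designs, 1 array each. The authors deposited 1 signal intensity per probe set on a linear scale, with MAS5 named in the submitters' processing notes, its version not given in the sources used here. Per array, the deposited 2% trimmed mean lay between 249.96 and 249.98, so the authors had scaled the arrays. The authors also deposited a file of other, non-expression settings per array, from which chip type and fluidics station were read. Gene symbols of probe sets came from the platform's annotation, and were updated by gene identifier (RefSeq, GRCm38.p6). Those with several symbols or none were left out. Here signals were scaled within a design to a common 2% trimmed mean, floored at the design's median and compared as log2 ratios within the design. A gene's value came from its probe set that was brightest over the 3 arrays relative to the floor (_x_at kind only where no other). Genes at the floor on both arrays had ratio 0 and were not called. The number of arrays limits the precision.

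The members, lists and rules were chosen with earlier results of these data known. All members are described. Of the other repair genes, the 3 highest and 3 lowest in each comparison above the floor were named. Alternatives were 5 other scalings, 2 other floors, a call at 3-fold, the floor as a pseudocount, averaging a gene's probe sets, dropping the _x_at and _s_at kinds, each design alone, and members above the floor only. Code (Python 3.11.15, pandas 2.3.3, numpy 2.4.6) was tested on simulated data.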

Additional observations from a re-analysis of the deposited data

How the results depend on the processing

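No member was lower than WT by 2-fold under any alternative, and no called ratio changed sign. The floor limits what this shows. A member at the floor in WT can neither be lower nor change sign, and one near the floor cannot be called lower. The number higher in LT against WT and in 17kT against WT was 7 and 8 with the floor at the 75th percentile, 12 and 16 with the mean over probe sets, 9 and 14 with a 3-fold rule, and 5 and 5 over the 13 members on the 430B design alone. Of all genes, 4.1% and 2.91% were higher with that floor, and 4.13% and 4.17% with that mean. Under the 3-fold rule 2.66% and 2.4% of all genes were higher, and on 430B alone 7.49% and 5.7%. The medians of the members were 0.15 and 0.15 with the floor at the 75th percentile, 0.72 and 0.96 with the mean over probe sets, and 0.08 and 0.00 on 430B alone. For 17kT against WT the median was 1.92 when scaled to the hybridisation controls, 1.64 with the floor at the 25th percentile and 1.04 with the floor as a pseudocount. The cause was not tested; a higher floor and fewer probe sets leave fewer measured differences by construction. For LT against 17kT, the hybridisation controls gave a median of -0.45 and 1 member higher, and 0 members were lower with median scaling, a pseudocount, a 3-fold rule or 430B alone. The other 94 list values stayed within 1.5 times the count or within the technical SD. The median of all genes above the floor in LT against WT moved from 0.02 to -0.27 when scaled to the probe sets present on both designs and to 0.41 with the hybridisation controls. In 17kT against WT it moved from 0.07 to -0.10 and 0.47. Of 22 members called in LT, 19 kept the call under all 6 scalings, and of 25 in 17kT, 24. Under every alternative that gave the gene a value, 3-fold included, 6 kept it in LT (Clspn, Fancb, H2ax, Lig1, Timeless and Topbp1) and 5 in 17kT (Clspn, H2ax, Lig1, Rpa1 and Timeless). Of the 12 members at the floor in WT, 11 have only bounds and Bard1 has no ratio. No paired analysis was possible because each genotype had 1 array per design.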
